A study of Homo sapiens with 9 samples.

Results

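The cytosolic ribosomal protein genes encode the proteins of the ribosomes that translate nuclear messages. They were taken by symbol, as the entries named RPL or RPS followed by a number, with an optional A, X or L suffix, or by P0, P1 or P2. The pattern found 83 genes among the 25142 entries of the deposited table. It found 43 proteins of the large subunit, 30 of the small subunit, 3 proteins of the stalk and 7 paralogs with an L suffix. It leaves out ribosomal proteins under other names, such as RPSA and FAU, and 42 further entries that begin with RPL or RPS, of which 27 carry pseudogene names and 10 name S6 kinases.

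Expression was measured in LNCaP, an androgen-responsive human prostate cancer cell line, by sequencing polyadenylated RNA. All cells were first starved of steroids for 24 h in 5% charcoal-stripped serum and then treated for 18 h. The 3 groups of 3 libraries received DMSO as vehicle, 1 nM of the synthetic androgen R1881, or 1 nM R1881 with 10 µM of the compound MEL-6. The androgen was therefore present in both groups without vehicle alone, and no group received MEL-6 alone. The labels call the replicates biological and say nothing of separate cultures, so the p-values measure the spread between these libraries.

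A ribosome needs close to equal numbers of its proteins, and growing cells spend a large part of their transcription on them. Many of these messages begin with a C followed by a run of C and T, the terminal pyrimidine tract, through which mTOR signalling and the RNA-binding protein LARP1 control their translation. Transcription of the ribosome's parts is in turn promoted by MYC. Beyond the ribosome, RPL5 and RPL11 bind MDM2 together with a small ribosomal RNA and so restrain that ubiquitin ligase.

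The start regions of some members whose values are described below are shown to make this feature visible and to show which of the paralogs shown lack it. Each stretch runs from 40 bases before to 20 bases from the annotated start, as listed by RefSeq on GRCh38.p14, and capitals mark the run of C and T that begins at the start. The first set holds members of the ribosome proper.
RPS6: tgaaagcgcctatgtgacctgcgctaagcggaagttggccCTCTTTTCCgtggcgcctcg
RPS18: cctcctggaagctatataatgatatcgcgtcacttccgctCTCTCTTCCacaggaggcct
RPL12: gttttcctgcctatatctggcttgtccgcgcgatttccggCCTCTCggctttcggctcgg
RPLP1: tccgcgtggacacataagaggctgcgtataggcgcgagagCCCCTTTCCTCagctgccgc
RPL28: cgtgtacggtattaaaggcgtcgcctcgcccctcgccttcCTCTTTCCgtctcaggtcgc
RPL36A: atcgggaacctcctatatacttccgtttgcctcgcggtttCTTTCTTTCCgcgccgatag
They lie at chr9:19380217-19380276 on the minus strand for RPS6, chr6:33272035-33272094 on the plus strand for RPS18, chr9:127451387-127451446 on the minus strand for RPL12, chr15:69452778-69452837 on the plus strand for RPLP1, chr19:55385892-55385951 on the plus strand for RPL28 and chrX:101390971-101391030 on the plus strand for RPL36A.

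The second set pairs paralogs with their parent genes, except that RPL7L1 stands without its parent RPL7.
RPL22: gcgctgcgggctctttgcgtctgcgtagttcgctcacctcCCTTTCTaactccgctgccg
RPL22L1: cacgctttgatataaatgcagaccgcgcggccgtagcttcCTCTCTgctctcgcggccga
RPL26: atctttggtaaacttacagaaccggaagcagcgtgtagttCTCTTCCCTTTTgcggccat
RPL26L1: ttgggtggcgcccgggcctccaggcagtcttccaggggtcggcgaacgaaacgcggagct
RPS27: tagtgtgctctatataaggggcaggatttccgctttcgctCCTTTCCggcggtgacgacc
RPS27L: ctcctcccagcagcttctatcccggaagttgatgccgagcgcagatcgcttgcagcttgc
RPL7L1: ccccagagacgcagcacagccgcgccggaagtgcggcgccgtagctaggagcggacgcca
They lie at chr1:6199576-6199635 on the minus strand for RPL22, chr3:170870176-170870235 on the minus strand for RPL22L1, chr17:8383174-8383233 on the minus strand for RPL26, chr5:172958689-172958748 on the plus strand for RPL26L1, chr1:153990722-153990781 on the plus strand for RPS27, chr15:63157458-63157517 on the minus strand for RPS27L and chr6:42879576-42879635 on the plus strand for RPL7L1. RPL26L1 has another listed start, at which no tract stood either.

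RefSeq promoters were matched for 66 members, with 82 listed starts. A C followed by at least 4 bases, each C or T, stood exactly at 46 of these starts, or 56.1%, against 4.07% of all 35116 listed human starts. The same run, read on the strand of the gene and beginning anywhere within 20 bases of the start, was in 87.8% of member starts and 47.9% of all. CCGGAAG on either strand, a core recognised by ETS factors such as GABPA, was in 34.1% of the 300-base promoters of members and in 10.3% of all. TATAAA between 50 and 15 bases before the start was in 4.88% and 2.48%. Among the paralogs shown, RPL22L1 carried a tract at its start as RPL22 did, whereas RPL26L1, RPS27L and RPL7L1 did not at the starts shown. RPL3, RPS26 and the paralog RPL10L, which are described below but not shown, had no tract at their listed starts either.

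Library facts that touch every value come first. Depth, estimated from the steps of low values, ran from 6.87 to 19.3 M (mega) reads, which put RPS6 at 27749 to 67291 reads per library and RPL21 at 2.01 to 7.62. The cells carried the luminal prostate markers sought, and KLK3, the prostate-specific antigen, went from 270 to 328 RPKM with vehicle to between 2153 and 2268 with R1881 and between 611 and 624 with MEL-6. The basal markers KRT5 and TP63, the leukocyte markers PTPRC and CD3E and the erythroid HBB and HBA1 were at 0 in all libraries. Other markers sought were not all absent. Leukocyte CD68 was at 2.88 to 4.15 RPKM, basal KRT14 at 0 to 0.347 and fibroblast COL1A1 at 2.05 to 3.45. COL1A1 was higher with MEL-6 against R1881 (limma adjusted p = 0.00176). Fibroblast COL1A2 was at 0 and DCN at or under 0.0536 RPKM. Vehicle replicate 3 and R1881 + MEL-6 replicate 1 deviated from their groups together. Their log2 deviations correlated at r = 0.86 over the 75 members above 10 RPKM and at r = 0.81 over 512 other genes of at least 100 RPKM, as a description across genes of these libraries. Vehicle replicate 1 and MEL-6 replicate 3 also deviated together, at r = 0.80 over the 75 members and 0.84 over the 512 other genes, and each went with R1881 replicate 3, at 0.50 and 0.65 over the members. For vehicle replicate 2 and MEL-6 replicate 2 the values were 0.74 over the members and 0.47 over the other genes. Deviations from a group mean sum to 0 over its 3 libraries, so these pairs are not independent of the first. In vehicle replicate 1, R1881 replicate 3 and MEL-6 replicate 3 the deviations rose with GC content. Over 457 non-members with a GC value, Spearman's rho was 0.74, 0.73 and 0.73 in that order, and over the 75 members 0.46, 0.37 and 0.48. They are called below the 3 libraries that followed GC content. The other libraries had negative values over the non-members, from -0.56 in R1881 replicate 1 to -0.14 in MEL-6 replicate 2. Because deviations sum to 0 in each group, these values cannot tell which libraries departed.

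The members that carried the deviation of vehicle replicate 3 and MEL-6 replicate 1 were mostly of low or middling level. RPS28 was 53.2 RPKM in vehicle replicate 3 and 52.97 in MEL-6 replicate 1, against 19.8 to 28.0 in the other 7 libraries. RPS10 was 106 and 120 in those libraries and between 43.8 and 80.5 elsewhere. RPL39 went the other way, with 14.8 and 7.39 against 25.3 to 35.9 RPKM. RPS10, RPL17 and RPL36A also overlap annotated read-through genes, and whether strand was used in counting is not given in the sources used here. These libraries were also high in the nuclear noncoding RNA MALAT1 within their groups, with 102 against 50.4 and 77.5 RPKM for vehicle and 243 against 162 and 119 for MEL-6, and MEL-6 replicate 1 was the shallowest library. The part of these shared deviations in each result was not tested. The counts below are also given without vehicle replicate 3 and MEL-6 replicate 1, and without the 3 libraries that followed GC content.

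**Figure D1:**
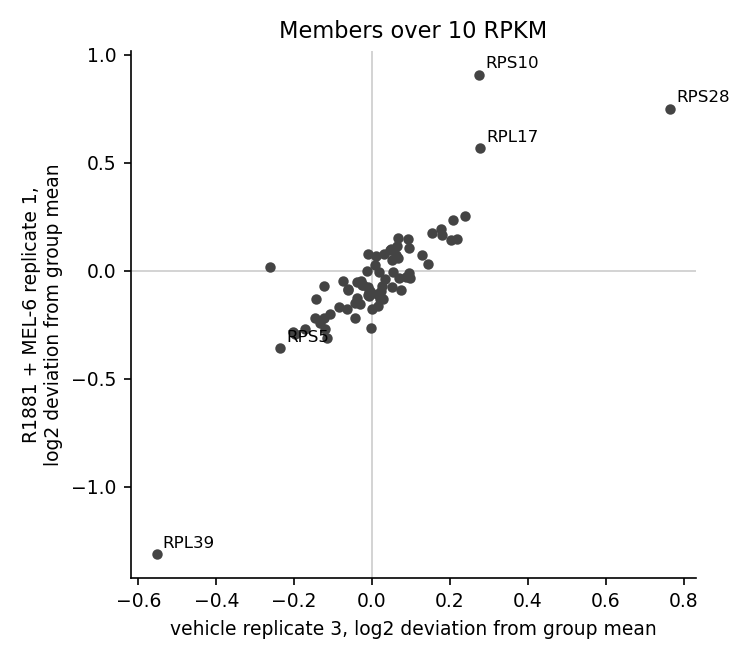
Log2 deviation from the group mean in vehicle replicate 3 (x axis) against that in R1881 + MEL-6 replicate 1 (y axis), 1 point for each of the 75 members above 10 RPKM. RPS28, RPS10 and RPL17 were high in both libraries and RPL39 was low in both.

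The members were among the most abundant messages of the cells. The 83 genes held 13.5%, 13.0% and 13.5% of the summed RPKM of the vehicle libraries, replicates 1 to 3, a mean of 13.3% ± 0.307 (SD, n = 3). With R1881 the shares were 11.2%, 11.6% and 11.9%, a mean of 11.6% ± 0.389 (SD, n = 3). With R1881 and MEL-6 they were 13.9%, 14.1% and 14.7%, a mean of 14.2% ± 0.432 (SD, n = 3). No value of any group overlapped those of another, with R1881 lowest and R1881 + MEL-6 highest. RPKM is a share of all messages, so these values do not give RNA per cell, and in such bulk RNA fewer cells of a type and less RNA per cell cannot be told apart. Large subunit, small subunit and stalk had 6.99%, 5.23% and 1.01% of the vehicle total on average, 6.07%, 4.57% and 0.845% with R1881, and 7.47%, 5.70% and 1.01% with MEL-6 added. With the 50 most abundant other genes left out of each total, the 3 group means were 14.6%, 12.8% and 15.7%, in the same order.

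**Figure D2:**
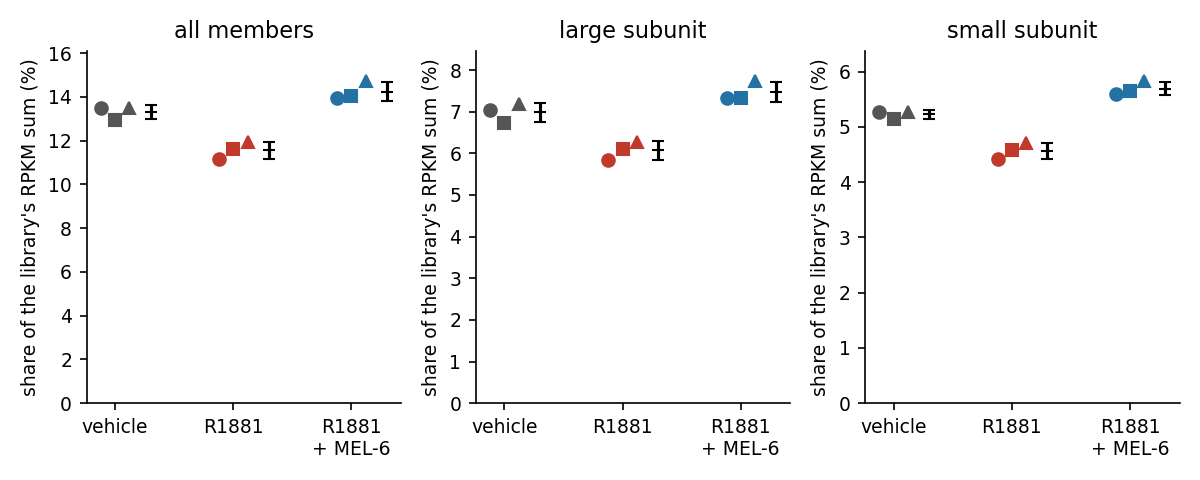
Share of each library's summed RPKM (y axis, percent) held by all 83 members, by the large subunit and by the small subunit, in the 3 groups. Circles, squares and triangles are replicates 1, 2 and 3, and the bar beside them is the mean with SD. The R1881 libraries lie below the others in each panel.

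Levels within the family were far from equal. The mean over the 9 libraries was above 1000 RPKM for 18 members, between 100 and 1000 for 43, between 10 and 100 for 14 and above 0 but below 10 for 6. RPS6, the substrate of the S6 kinases (chr9:19376254-19380235 on hg19), was highest at a mean of 2830 RPKM, followed by RPS18 at 1817. RPL21 at 0.745, RPS27 at 3.64 and RPS26 at 4.67 RPKM were the lowest of the 80 members that were tested. Of the others, RPL3L, a paralog of RPL3 known from striated muscle, stayed at or under 0.0645 RPKM, and RPL39L, a paralog of RPL39 known from testis, was listed at 0 in every library.

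Low level went with shared sequence. Processed pseudogenes copy many of these messages, and a read that fits several copies can be lost or split. The share of each member's transcript found as identical 50-base windows at another annotated locus had a median of 10.1% for the members above 1000 RPKM, 27.6% between 100 and 1000, 40.3% between 10 and 100 and 66.5% for the 5 tested members under 10. RPL21 shared 77.6% of its windows and had 66 annotated pseudogenes. RPL9 at 5.87 RPKM shared 86.0%, RPL7 at 5.58 RPKM 66.2% and RPS27 66.5%. The relation was loose, with Spearman's rho = -0.35 across the 83 genes, which share their libraries, and RPL6 shared 79.2% at 325 RPKM and RPS2 69.4% at 356. The authors' treatment of reads with several matches is not given in the sources used here, so levels of members with many shared windows are uncertain.

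**Figure D3:**
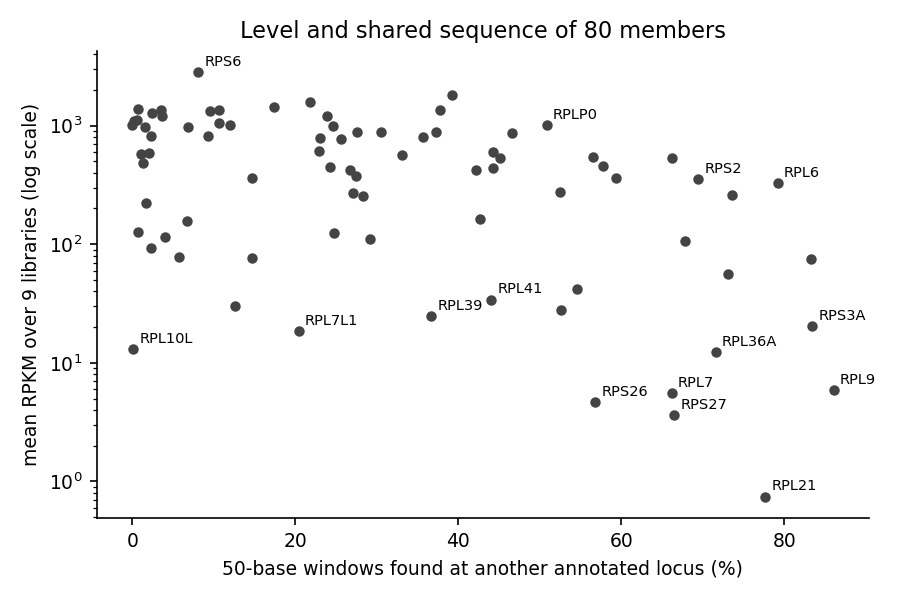
Mean RPKM over 9 libraries (y axis, log scale) against the percent of 50-base windows of the transcripts found at another annotated locus (x axis), for the 80 tested members. The 5 members under 10 RPKM, RPL21, RPS27, RPS26, RPL7 and RPL9, all lie above 56% shared windows, and RPL6 and RPS2 are as shared at over 300 RPKM.

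R1881 against vehicle asks what androgen did to these messages in starved cells. RPKM of ribosomal protein genes was lower with R1881 for 31 of 80 tested members and higher for 0, by limma on log2(RPKM + 0.5) at a Benjamini-Hochberg adjusted p under 0.05 over 13295 genes. At an unadjusted p under 0.05, 44 were lower and 0 higher. Of all tested genes 31.3% were called lower and 14.5% higher, 45.8% in either direction. The member share of lower calls, 38.8%, was close to that background. The median log2 change of the members was -0.21 against -0.12 over all genes and -0.04 over the 512 other abundant ones (0.08 under median-of-ratios scaling), and 75 of 80 members had a negative change. Groups did not overlap for 47 members, against 57.9% of all genes. By role, 18 of 43 large-subunit genes, 8 of 29 small-subunit genes, 2 of 3 stalk genes and 3 of 5 paralogs were lower.

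How many members passed depended on the scaling. Under median-of-ratios scaling, which moved the median of all genes from -0.12 to -0.01, 6 members were lower and 1 higher, with 19.1% and 20.9% of all genes, and the member median was -0.085. Relative to the median of all genes the members lay at -0.09 on the RPKM scale and -0.08 on the other. The direction held and the share of members called lower did not stand above that of all genes. The 6 were RPS27L, RPL36A, RPLP1, RPL5, RPL22 and RPS12, and the 1 was RPL26L1. Without vehicle replicate 3 and MEL-6 replicate 1, 32 members were lower, and without the 3 libraries that followed GC content 23 were, but without R1881 replicate 1 only 15 were, without R1881 replicate 2 or vehicle replicate 3 alone 16, and without vehicle replicate 1, 18 lower and 1 higher.

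The 4 largest decreases named by size were RPL36A, RPS27L, RPL14 and RPLP1. RPS27L, a paralog of RPS27, was 102, 106 and 109 RPKM with vehicle and 73.3, 75.8 and 72.2 with R1881, a log2 change of -0.51 ± 0.06 (SE, limma adjusted p = 4.64e-05). The groups were well apart, and with MEL-6 added it was 105, 91.6 and 97.3. RPL36A, a large-subunit protein (chromosome X) and one of the members with many shared windows and few reads (33.8 to 84.5 estimated per library), was 16.1, 14.4 and 17.9 RPKM with vehicle and 12.8, 8.02 and 10.2 with R1881 (-0.63 ± 0.15, SE, limma adjusted p = 0.00636, 0.0541 without the 3 libraries that followed GC content). It stayed at 11.5, 8.87 and 10.2 with MEL-6, values that overlap those with R1881 alone.

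RPLP1, which with RPLP2 forms the paired arms of the stalk that recruits translation factors, was 1535, 1392 and 1448 RPKM with vehicle and 1124, 1109 and 1173 with R1881 (-0.36 ± 0.07, SE, limma adjusted p = 0.0027). RPL14, of the large subunit, was 443, 414 and 515 with vehicle and 332, 373 and 346 with R1881 (-0.38 ± 0.10, limma adjusted p = 0.0111, 0.0683 under median-of-ratios scaling). Neither gene's groups overlapped. RPLP0, the base of the stalk, fell from 1074, 1027 and 984 RPKM to 866, 905 and 936 (-0.19 ± 0.07, limma adjusted p = 0.0398), a call lost in 12 of 23 alternatives, and RPLP2 was 1305, 1146 and 996 with vehicle and 930, 989 and 1055 with R1881 (-0.21, limma adjusted p = 0.234). The RPLP2 groups overlapped, through vehicle replicate 3.

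Among the MDM2-binding proteins, RPL5 was the clearest. It was 597, 565 and 620 RPKM with vehicle, 463, 482 and 478 with R1881 and 658, 591 and 628 with MEL-6, so that the R1881 libraries lay below all others. Its log2 change was -0.32 ± 0.06 with R1881 (SE, limma adjusted p = 0.00138). RPL23, the third member of this set, was 1431, 1334 and 1606 with vehicle and 1149, 1259 and 1260 with R1881 (-0.25 ± 0.08, limma adjusted p = 0.0249). That call was lost in 9 of 23 alternatives, with a limma adjusted p of 0.223 under median-of-ratios scaling and 0.091 without vehicle replicate 3. RPL11 was 941, 885 and 1128 with vehicle and 798, 851 and 868 with R1881, which did not pass (-0.22, limma adjusted p = 0.0838).

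The most abundant member, RPS6, was 2903, 2692 and 3007 RPKM with vehicle, 2213, 2532 and 2519 with R1881 and 3127, 3113 and 3365 with MEL-6. These groups did not overlap, and R1881 was lowest. Its log2 change with R1881 was -0.25 ± 0.08 (SE, limma adjusted p = 0.0288, 0.236 under median-of-ratios scaling and 0.109 without R1881 replicate 1). RPS18, of the head of the small subunit, was 1943, 1825 and 1835 with vehicle and 1563, 1611 and 1654 with R1881 (-0.21 ± 0.06, limma adjusted p = 0.0187, 0.254 under median-of-ratios scaling). RPL10, among the last proteins to join the large subunit, was 173, 160 and 170 with vehicle and 150, 152 and 145 with R1881 (-0.17, limma adjusted p = 0.0402, lost in 13 of 23 alternatives), and RPL41, the smallest ribosomal protein, was 39.8, 33.0 and 39.9 and then 26.9, 34.6 and 29.6 with overlap (-0.30, limma adjusted p = 0.0406, lost in 12).

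**Figure D4:**
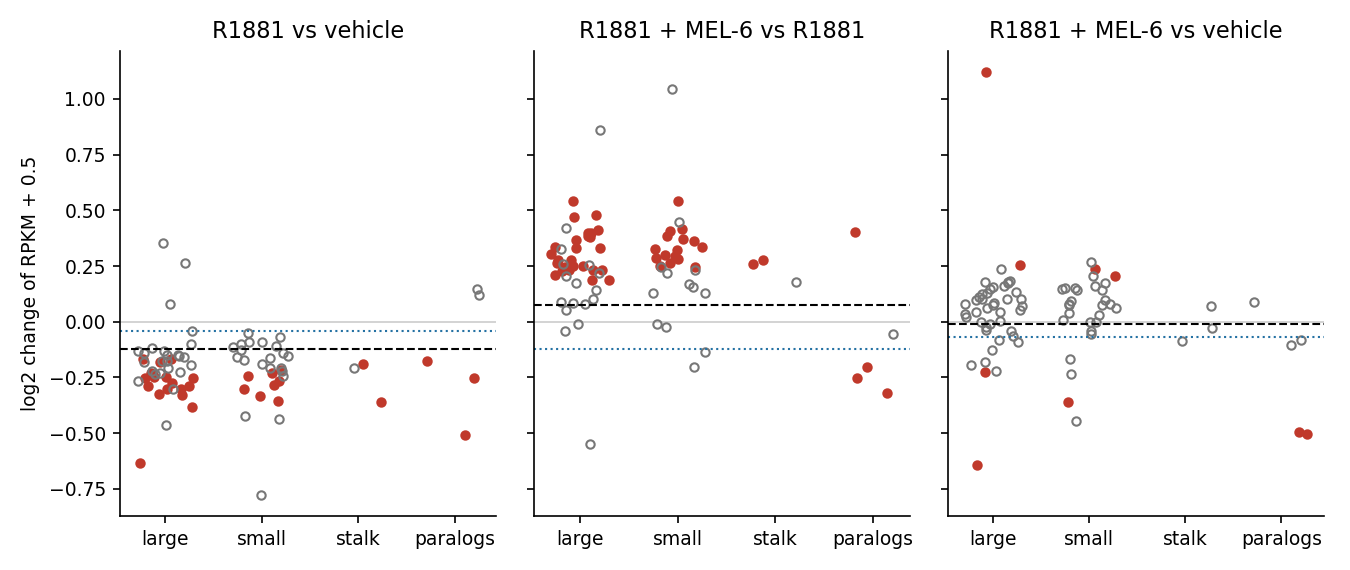
Log2 change of RPKM + 0.5 (y axis) of each tested member by role (x axis), in the 3 comparisons. Red points passed a limma adjusted p under 0.05 and open points did not. The dashed line is the median of all tested genes and the dotted line that of 512 other abundant genes. In the middle panel most members lie above both lines and 3 paralogs are called lower.

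R1881 + MEL-6 against R1881 asks what the compound changed in androgen-treated cells. It shares the R1881 libraries with the comparison above, so the opposite signs of the values are not independent. With MEL-6 45 of 80 tested members were higher and 3 lower, the paralogs RPL22L1, RPL7L1 and RPL26L1, with 31.4% of all genes called higher, 20.6% lower and 52.0% in either direction. Higher calls made up 56.2% of the members. The median log2 change was 0.25 for members, 0.07 for all genes and -0.12 for other abundant genes, and 69 of 80 members had a positive change. By role, 26 of 43 large-subunit, 16 of 29 small-subunit and 2 of 3 stalk genes were higher, and 0 of these were lower, also at an unadjusted p under 0.05. Groups did not overlap for 49 members, with 59.8% of all genes. Under median-of-ratios scaling 24 were higher and 4 lower, with 24.6% and 28.5% of all genes and 53.1% in either direction, and the member median was 0.15, with -0.02 over all genes. Without vehicle replicate 3 and MEL-6 replicate 1, 56 were higher and 5 lower, and without the 3 libraries that followed GC content 34 and 3. The nuclear noncoding RNAs moved in this comparison too. MALAT1 was 61.0, 69.0 and 52.1 RPKM with R1881, all below its MEL-6 values, and changed by 1.47 with MEL-6 against R1881 (limma adjusted p = 0.00115). NEAT1 changed by 1.31 (limma adjusted p = 0.000972). Their part in the result was not tested.

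RPL12, a large-subunit protein near the base of the stalk (chr9:130209955-130213684 on hg19), was 416, 448 and 476 RPKM with R1881 and 610, 624 and 723 with MEL-6, a log2 change of 0.54 ± 0.08 (SE, limma adjusted p = 0.000195). It was above the vehicle values of 559, 522 and 553 as well. RPS2, of the small subunit, was 257, 274 and 333 with R1881 and 407, 381 and 466 with MEL-6 (0.54 ± 0.11, SE, limma adjusted p = 0.00164). RPL28, found in ribosomes of animals but not of bacteria, was 90.8, 90.2 and 105 with R1881 and 140, 118 and 141 with MEL-6 (0.48 ± 0.10, SE, limma adjusted p = 0.00218). For both genes all MEL-6 libraries lay above all R1881 libraries.

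RPL26, at the exit of the peptide tunnel, was 694, 735 and 763 RPKM with R1881 and 1189, 910 and 956 with MEL-6, where replicate 1 was highest (0.47 ± 0.11, SE, limma adjusted p = 0.00557). The calls of RPL12, RPS2, RPL28 and RPL26 held in all 23 alternatives. RPL5 rose by 0.40 ± 0.06 on the log2 scale (SE, limma adjusted p = 0.000284), and RPL11 reached 1219, 1019 and 1084 RPKM with MEL-6 (0.40 ± 0.10, limma adjusted p = 0.00607). RPL23 was 1625, 1524 and 1625 with MEL-6, all above its R1881 values (0.38 ± 0.08, limma adjusted p = 0.00229). All 3 MDM2-binding members therefore passed in this comparison.

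RPS6 rose by 0.40 ± 0.08 on the log2 scale (SE, limma adjusted p = 0.0017). RPS18 was 1882, 1980 and 2057 RPKM with MEL-6 (0.29 ± 0.06, limma adjusted p = 0.00299). For RPS6 and RPS18 every MEL-6 library was above every R1881 library, and both calls were lost with no filter on low genes (limma adjusted p = 0.0598 and 0.0668). Of the stalk, RPLP0 reached 1014, 1078 and 1149 (0.26 ± 0.07, limma adjusted p = 0.00789), RPLP1 1304, 1312 and 1516 (0.28 ± 0.07, limma adjusted p = 0.00999), and RPLP2 was 914, 1164 and 1322 with no call (limma adjusted p = 0.287). The calls of RPLP0 and RPLP1 did not hold under median-of-ratios scaling (limma adjusted p = 0.0578 and 0.061), nor that of RPLP1 with no filter (0.0701). RPL10 was 172, 161 and 185 with MEL-6 (0.21 ± 0.06, limma adjusted p = 0.0127, 0.134 under that scaling), and RPL41 was 37.9, 31.0 and 34.1 with no call.

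**Figure D5:**
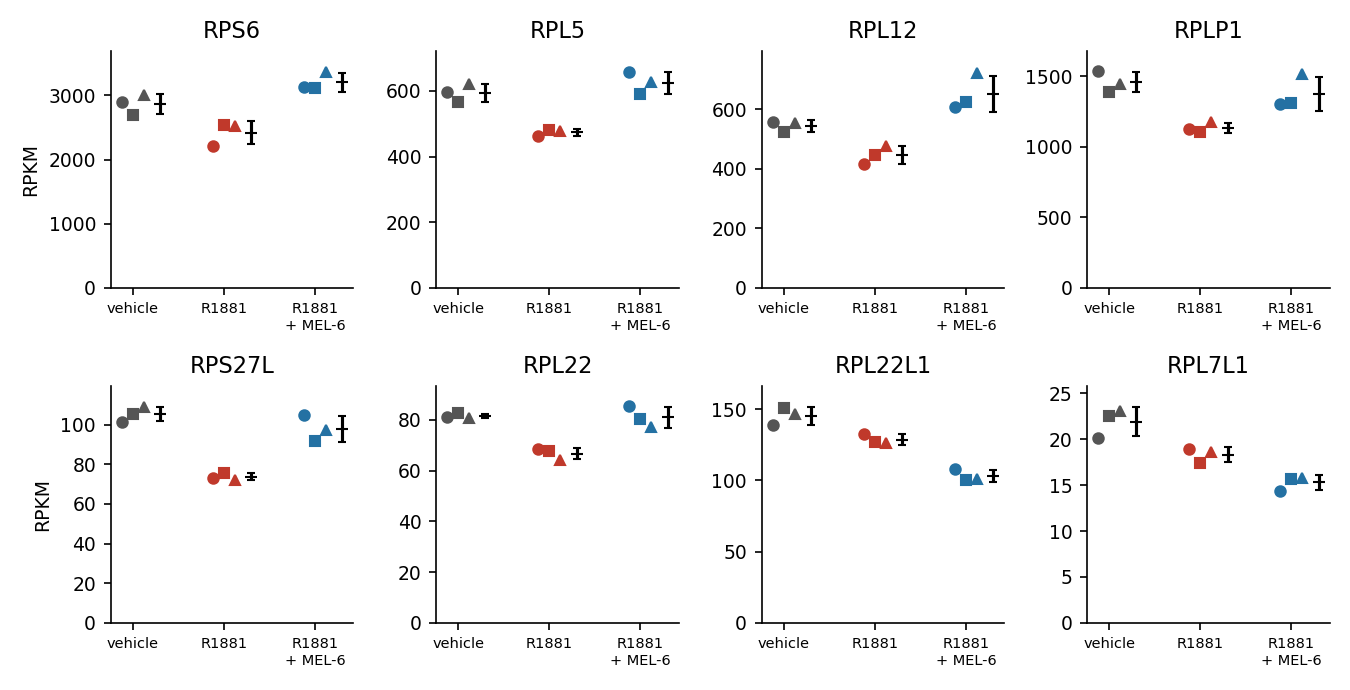
RPKM (y axis, from 0) of 8 members in the 9 libraries by group. Circles, squares and triangles are replicates 1, 2 and 3, and the bar is the mean with SD. RPS6, RPL5, RPL12, RPLP1, RPS27L and RPL22 were lowest with R1881, and the paralogs RPL22L1 and RPL7L1 were lowest with R1881 + MEL-6.

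The paralogs are set here beside their parent genes. RPL22L1 was 139, 151 and 146 RPKM with vehicle, 133, 127 and 126 with R1881 and 108, 100.5 and 101 with MEL-6, a step down each time without overlap. Its log2 change was -0.18 ± 0.05 with R1881 (limma adjusted p = 0.019, lost in 7 of 23 alternatives), -0.32 ± 0.05 with MEL-6 against R1881 (limma adjusted p = 0.000511) and -0.49 ± 0.05 against vehicle (limma adjusted p = 5.17e-05). Its parent RPL22, an RNA-binding protein that in mouse represses Rpl22l1, was 81.1, 82.6 and 80.9 with vehicle, 68.4, 67.8 and 64.0 with R1881 and 85.5, 80.2 and 77.2 with MEL-6. RPL22 thus changed by -0.29 ± 0.05 with R1881 (limma adjusted p = 0.0011) and by 0.28 ± 0.05 with MEL-6 added (limma adjusted p = 0.00114). The ratio of RPL22L1 to RPL22 was 1.78 ± 0.063 with vehicle, 1.93 ± 0.053 with R1881 and 1.28 ± 0.030 with MEL-6 (SD, n = 3 each, two-sided exact permutation p = 0.1 for each pair of groups, the smallest that 3 against 3 allows).

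RPL7L1, a paralog of RPL7 linked to large-subunit assembly, was 20.1, 22.6 and 23.1 RPKM with vehicle, 18.9, 17.4 and 18.6 with R1881 and 14.4, 15.7 and 15.8 with MEL-6. Each group lay below the one before, by -0.25 ± 0.07 with R1881 (limma adjusted p = 0.0117, 0.141 under median-of-ratios scaling) and -0.25 ± 0.07 with MEL-6 against R1881 (limma adjusted p = 0.00977). RPL26L1 was 29.6, 26.7 and 26.0 with vehicle, 29.1, 29.3 and 31.1 with R1881 and 25.03, 25.9 and 26.6 with MEL-6 (-0.20 ± 0.06 for MEL-6 against R1881, limma adjusted p = 0.0153, 0.0632 without R1881 replicate 3). It shares 52.5% of its windows with other loci, so reads of RPL26 may enter its count. RPL10L, the intronless copy of RPL10 known from testis, was 13.7, 13.4 and 10.2 with vehicle, 14.9, 12.9 and 13.3 with R1881 and 13.3, 12.4 and 13.7 with MEL-6, with no call. RPS27L was higher with MEL-6 by 0.40 ± 0.06 (limma adjusted p = 0.000191), the 1 of 5 tested paralogs called so. Its parent RPS27 went from 1.34 to 9.65 RPKM across the libraries, highest in vehicle replicate 3 and MEL-6 replicate 1, which leaves the ratio to RPS27L uncertain. RPL3, parent of the silent RPL3L, was 1430, 1326 and 1200 with vehicle, 1166, 1259 and 1259 with R1881 and 1242, 1552 and 1649 with MEL-6, with no call.

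R1881 + MEL-6 against vehicle shares its libraries with both other comparisons. It called 4 members higher and 5 lower, with 17.2% of all genes higher, 20.8% lower and 38.0% in either direction, so the 11.2% of members called lay below the background. Under median-of-ratios scaling the calls were again 4 and 5, with 18.5%, 18.8% and 37.4% of all genes. The median log2 change was 0.07 for members, -0.01 for all genes and -0.07 for other abundant genes. Groups did not overlap for 14 members, against 46.5% of all genes. The count was 13 without vehicle replicate 3 and MEL-6 replicate 1, and ran from 4 without vehicle replicate 2 to 16 without MEL-6 replicate 1, with 5 without MEL-6 replicate 3 and 5 without the 3 libraries that followed GC content.

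RPL22L1, RPL7L1, RPL36A, RPS27A and RPL23A were lower. RPL7L1 fell by 0.50 on the log2 scale (SE 0.07, limma adjusted p = 0.000273) and RPL36A by 0.64 (SE 0.15, limma adjusted p = 0.0075, 0.0614 without the 3 libraries that followed GC content). RPS27A, made as a fusion with ubiquitin, was 42.1, 46.5 and 53.4 RPKM with vehicle, 44.7, 45.0 and 37.0 with R1881 and 41.0, 33.0 and 36.0 with MEL-6 (-0.36 ± 0.11, limma adjusted p = 0.024, lost without any of vehicle replicates 2 and 3 and MEL-6 replicates 2 and 3). RPL23A, which fell outside the number of genes chosen for naming and is given because the count is small, was 148, 145 and 126 with vehicle and 109, 126 and 124 with MEL-6 (-0.23, limma adjusted p = 0.0368).

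RPL12, RPL7 and RPS20 were among those higher. RPL12 passed at 0.26 ± 0.08 (limma adjusted p = 0.0245), and RPS20 went from 249, 241 and 259 to 299, 266 and 301 RPKM (0.21 ± 0.06, limma adjusted p = 0.0279). RPL7 was 3.51, 4.18 and 2.75 with vehicle and 4.26, 9.77 and 12.3 with MEL-6 (1.12 ± 0.35, limma adjusted p = 0.0301), with few reads and many shared windows. The calls of these 3 genes were each lost when some single library was left out, RPL12 without vehicle replicate 2 (limma adjusted p = 0.0856) or MEL-6 replicate 3 (0.0706), RPS20 without either of vehicle replicates 1 and 2 or MEL-6 replicates 1 and 3, and RPL7 without either of vehicle replicates 1 and 3 or MEL-6 replicates 2 and 3.

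Median changes of members with and without a tract at a listed start had the same sign. Of the 46 with a tract, 22 were lower with R1881 and 27 higher with MEL-6 added, with medians of -0.21 and 0.25, while 1 was lower with MEL-6. Of all tested genes 31.3% were lower with R1881 and 31.4% higher with MEL-6. Of the 20 with none, 3 were lower with R1881, and 8 higher and 2 lower with MEL-6, with medians of -0.14 and 0.23. Under median-of-ratios scaling, 4 of the 46 were lower and 0 higher with R1881, and 12 higher and 2 lower with MEL-6, and of the 20, 1 was lower and 1 higher, and then 3 higher and 2 lower. All genes then had 19.1% lower with R1881 and 24.6% higher with MEL-6. The first set was also more abundant, with a median level of 532 against 267 RPKM, and the difference between the sets was not tested.

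Genes of the surrounding pathway were described from lists, with calls by limma at an adjusted p under 0.05, and with the counts under median-of-ratios scaling beside them. Of 23 translation factors and other messages of the pyrimidine-tract kind, 18 were lower and 0 higher with R1881, and 21 were higher and 0 lower with MEL-6 added, with medians of -0.24 and 0.37. At an unadjusted p under 0.05 these counts were 19 and 0, and 21 and 0, and under median-of-ratios scaling 5 were lower and 1 higher, and 17 higher and 0 lower. All tested genes had 31.3% lower and 14.5% higher with R1881, and 31.4% higher and 20.6% lower with MEL-6 added. Under median-of-ratios scaling those shares were 19.1% and 20.9%, and 24.6% and 28.5%. The translocation factor EEF2 was 1774, 1566 and 1635 RPKM with vehicle, 1282, 1298 and 1465 with R1881 and 2008, 2193 and 2536 with MEL-6, with log2 changes of -0.30 (limma adjusted p = 0.0267) and 0.73 (limma adjusted p = 0.000115). The snoRNA host GAS5 changed by -0.30 and 0.78, and SNHG8 by -0.48 and 0.64. The histone chaperone NAP1L1 changed by -0.73 with R1881 and 0.47 with MEL-6, and HNRNPA1 by -0.43 and 0.21. Of 6 tested ribosomal proteins under other names, 2 were lower with R1881 and 3 higher with MEL-6, among them RPSA at -0.17 and 0.32, and GNB2L1, which encodes RACK1, was higher with MEL-6 at 0.34. Under median-of-ratios scaling 1 was lower and 1 higher with R1881, and 3 higher and 0 lower with MEL-6, and the median with R1881 went from -0.10 to 0.02.

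Genes that build the ribosome had more lower than higher calls in each comparison. On the RPKM scale all tested genes had so too in R1881 against vehicle (31.3% lower, 14.5% higher) and MEL-6 against vehicle (20.8% and 17.2%). In MEL-6 against R1881 all tested genes had more higher calls (20.6% lower, 31.4% higher). How all tested genes leaned depended on the scaling. Under median-of-ratios scaling their lower and higher shares were 19.1% and 20.9%, 18.8% and 18.5%, and 28.5% and 24.6%, in that order. Of 58 tested biogenesis genes, 28 were lower and 2 higher with R1881, then 21 lower and 2 higher with MEL-6 against R1881, and 42 lower and 1 higher with MEL-6 against vehicle, where the median was -0.32. The lower calls were 48.3%, 36.2% and 72.4% of the list. Under median-of-ratios scaling the lower and higher counts were 15 and 3, 37 and 2, and 40 and 2. Pre-ribosome GTPases GNL2 and GTPBP4 changed by -0.55 and -0.51 with MEL-6 against R1881, and UTP15, of the early small-subunit particle, by -0.50. NOB1, the nuclease that finishes the small-subunit RNA, and GNL3, nucleostemin, changed by 0.59 and 0.57. With R1881 the largest decreases were of PPAN (-0.85, at under 3 RPKM, with overlapping groups), WDR12 (-0.54), of a large-subunit assembly complex, and TCOF1 (-0.49), the nucleolar protein treacle, and the increases were of NMD3 (0.34), an export adaptor of the large subunit, and UTP15 (0.26). The 76 mitochondrial ribosomal proteins had 28 lower and 3 higher with R1881, 22 lower and 9 higher with MEL-6 against R1881, and 44 lower and 1 higher with MEL-6 against vehicle, where their median was -0.25, so that 36.8%, 28.9% and 57.9% were lower. Under median-of-ratios scaling their lower and higher counts were 9 and 8, 40 and 4, and 41 and 1.

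RNA polymerase I genes, for transcription of ribosomal RNA, had 9 of 15 lower and 0 higher with R1881 (10 and 0 at an unadjusted p under 0.05), and 4 higher and 1 lower with MEL-6. Under median-of-ratios scaling these were 4 and 0, and 4 and 2. Beside these and the counts below, 31.3% of all tested genes were lower and 14.5% higher with R1881. With MEL-6 against R1881, 31.4% were higher and 20.6% lower. Under median-of-ratios scaling those shares were 19.1% and 20.9%, and 24.6% and 28.5%. POLR1E, POLR1D and TAF1D changed by -0.56, -0.44 and -0.39 with R1881 and by 0.39, 0.65 and 0.69 with MEL-6, and the terminator TTF1 by -0.24 with MEL-6. Of 48 initiation factors, 18 were lower and 2 higher with R1881, and 20 higher and 13 lower with MEL-6, and under median-of-ratios scaling 6 and 7, and 16 and 21. The direction of the median of the polymerase I list with MEL-6 depended on the scaling, at 0.02 on the RPKM scale and -0.08 under median-of-ratios scaling, and for the initiation factors it was 0.03 and -0.06.

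Regulators of ribosome production were called in both directions, as were tested genes as a whole. MYC was 95.4, 92.4 and 90.2 RPKM with vehicle, 46.2, 46.6 and 49.1 with R1881 and 87.1, 88.9 and 92.6 with MEL-6, with log2 changes of -0.96 ± 0.05 (limma adjusted p = 1.05e-07) and 0.91 ± 0.05 (limma adjusted p = 1.67e-07). MTOR went the opposite way, from 16.4, 14.7 and 13.5 to 46.3, 42.9 and 50.1 and back to 14.9, 17.4 and 15.8 (1.61 ± 0.09, limma adjusted p = 1.62e-07, and -1.50 ± 0.09, limma adjusted p = 2.75e-07). DDIT4 and SESN2, stress-induced inhibitors of mTOR signalling, rose with MEL-6 by 1.71 and 1.60 and stood at 232 to 275 and 27.4 to 30.4 RPKM. SESN1 changed by -1.24 with R1881 and DDIT4 by -0.97. The MYC antagonists MXI1 and MXD1 went in opposite directions, MXI1 by -0.68 with R1881 and 0.94 with MEL-6, and MXD1 by 0.42 and -0.33. RPS6KB2, a kinase of RPS6, changed by 0.30 with R1881 and -0.58 with MEL-6, and LARP4 by -0.33 with MEL-6. Of 23 tested genes in this list, 5 were higher and 9 lower with R1881, and 9 higher and 5 lower with MEL-6, or 7 and 8, and 8 and 9, under median-of-ratios scaling. The shares over all tested genes were 14.5% higher and 31.3% lower with R1881, and 31.4% higher and 20.6% lower with MEL-6. Under median-of-ratios scaling those shares were 20.9% and 19.1%, and 24.6% and 28.5%.

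In the list around MDM2, 5 of 7 genes were lower and 1 higher with R1881, and 5 higher and 1 lower with MEL-6, or 4 and 1, and 4 and 1, under median-of-ratios scaling. Over all tested genes 31.3% were lower and 14.5% higher with R1881, and 31.4% higher and 20.6% lower with MEL-6. Under median-of-ratios scaling those shares were 19.1% and 20.9%, and 24.6% and 28.5%. CDKN1A, the p21 cell-cycle inhibitor, was 51.8, 50.3 and 47.4 RPKM with vehicle, 39.2, 38.6 and 43.0 with R1881 and 93.4, 92.3 and 98.3 with MEL-6. Its log2 change was -0.30 ± 0.06 with R1881 (limma adjusted p = 0.0016) and 1.22 ± 0.06 with MEL-6 against R1881 (limma adjusted p = 6.77e-08). MDM2 changed by -0.39 with R1881 and by 0.36 with MEL-6 against R1881 (limma adjusted p = 0.000997 for the latter). GLTSCR2, which anchors RPL11 in the nucleolus, changed by 0.55 with MEL-6, HEATR3, the import partner of RPL5 and RPL11, by -0.36 with R1881, and BCCIP, a partner of RPL23, by 0.25 with R1881 and -0.58 with MEL-6. The comparisons share libraries, so these values stand side by side and are not independent.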

How the data were processed

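Polyadenylated RNA of LNCaP cells was sequenced from 9 libraries after column isolation and TruSeq preparation, per the labels' protocols. Reads were processed with CASAVA 1.8 on GRCh37 (hg19), per the submitters' processing notes. The authors deposited a table of RPKM values, reads per kilobase of each gene model relative to the size of the library, and the sheet is named for counts but its values are not whole numbers. Read filters, strand and the treatment of reads with several matches are not given in the sources used here. Library columns were matched to samples through their descriptions, and 0 other sample columns were present.

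The 13295 genes that reached 0.5 RPKM in 3 or more libraries were tested by limma-trend (limma 3.58.1, R 4.3.3) on log2(RPKM + 0.5), with all libraries in a single model of group means and two-sided p-values adjusted by the Benjamini-Hochberg method over all tested genes. This scale understates changes of low genes. The procedure was tested on simulated data. Depth was estimated from the steps of low RPKM values in 126 genes with a single transcript, and the absolute numbers depend on transcript lengths from a newer annotation. Of 3764 low genes checked, 902 (24%) had values in whole steps within a relative tolerance of 0.0005. The read numbers are therefore rough. Shared windows were counted in GENCODE transcripts, promoters came from RefSeq on GRCh38.p14, and no coordinates were converted. Ratios were tested by exact permutation (scipy 1.17.1). Protein sequences were not used here.

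The members, lists and tests were chosen with earlier results of these data known. Members were named if among the 4 largest called changes per direction and comparison, reaching 5 RPKM in the higher of 2 groups that do not overlap, if among the 3 highest or lowest levels, if a paralog or its parent, or from a fixed set (RPL5, RPL11, RPL23, RPS6, the stalk, RPL10, RPL41). From each other list at most 3 called genes per direction in 2 comparisons were named. Alternatives covered scaling, filter, pseudocount (0.1 and 1), trend, the replicate block, only the 6 libraries compared and each library left out. Leaving out vehicle replicate 3 with MEL-6 replicate 1, and vehicle replicate 1 with R1881 replicate 3 and MEL-6 replicate 3, was chosen after seeing the data. Some genes that these rules name are not reported here.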

Additional observations from a re-analysis of the deposited data

How the results depend on the processing

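The member medians and the called changes of named members kept their direction in the alternatives run, but medians of other lists did not. With median-of-ratios scaling, the R1881 medians of the ribosomal proteins under other names, the growth-control list and the other abundant genes went from -0.10, -0.08 and -0.04 to 0.02, 0.03 and 0.08, and the MEL-6 against R1881 medians of RNA polymerase I and the initiation factors from 0.02 and 0.03 to -0.08 and -0.06. In MEL-6 against vehicle the stalk median of -0.03 became 0.04 with upper-quartile scaling, and those of the growth-control, MDM2 and initiation-factor lists also changed sign there. Of 46 named-member calls 19 held in all 23 alternatives, 4 of 17 for R1881 against vehicle, 13 of 21 for MEL-6 against R1881 and 2 of 8 for MEL-6 against vehicle, and median-of-ratios scaling ended 16, no filter 17 and leaving out vehicle replicate 1, R1881 replicate 3 and MEL-6 replicate 3 together ended 13. Members called in R1881 against vehicle numbered 31, and 15 with no filter, 7 with median-of-ratios scaling, 9 with upper-quartile scaling, 8 with that first scaling and vehicle replicate 3 and MEL-6 replicate 1 left out, and 15 to 40 with a single library left out. The median log2 change there, -0.21, was -0.085 with median-of-ratios scaling and -0.0734 with the same libraries out as well, and -0.25 to -0.17 with a single library left out. For MEL-6 against R1881 the count of 48 was 28 with median-of-ratios scaling and 34 to 58 with a library left out, and the median of 0.25 was 0.15 with that scaling and 0.20 to 0.29 with a library left out. For MEL-6 against vehicle the count of 9 was 3 with no filter, 18 with both libraries out under median-of-ratios scaling, 5 with those 3 libraries out and 4 to 16 with a library left out, and the median 0.02 to 0.09. Without the 50 most abundant other genes, the member shares were 14.6%, 12.8% and 15.7%, and with a library left out 13.2% to 13.5%, 11.4% to 11.8% and 14.0% to 14.4% for vehicle, R1881 and MEL-6. The causes were not tested.

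With the replicate block the counts were 27, 49 and 9. The labels share replicate numbers across groups. Deviations of same-numbered libraries correlated over 6583 genes at values from -0.61 (vehicle 1 and MEL-6 1) to 0.54 (R1881 3 and MEL-6 3). The deviations shared by differently numbered libraries enter these values, so they cannot decide whether the numbers pair the libraries. Low depth limits RPL21, RPS27, RPS26, RPL7, RPL9 and RPL36A, at 2.01 to 147 estimated reads per library, and RPL39 and RPL10L, whose shallowest libraries had 20.4 and 74.3.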
